A study of Homo sapiens with 36 samples.

Results

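The comparison described here sets HUDEP-2 cells with a lowered GATA2 level that were rescued with the zinc finger mutant T354M against wild-type HUDEP-2 cells, by the chromatin sites that an anti-GATA2 antibody recovered in each. It rests on 8 of the 36 libraries of the series, of which 28 had a peak list used here. The 4 rescued libraries carry the title of GATA2 low cells with lentiviral HA-GATA2(T354M), and the 4 control libraries that of cells with a lentiviral empty vector and no GATA2 low in the title, all with the GATA2 antibody. A site is an interval of peaks from all 28 lists that overlap by at least 1 bp on chromosomes 1 to 22 and X, and a gene has a peak where a summit lies in its body or within 10 kb. Of 17277 sites, 11889 had a peak in at least 1 of the 8 libraries, and so did 7196 of 19974 protein-coding genes.

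GATA2, a zinc finger protein needed by blood stem and progenitor cells, binds the sequence GATA mainly through its C-terminal finger and acts with the partners TAL1, LMO2 and LDB1 and the cofactor FOG1. As erythroid cells mature, GATA1 takes its place on many of the same sites. T354M changes a residue of the C-terminal finger and is a germline mutation known from families with myelodysplastic syndrome and acute myeloid leukaemia.

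HUDEP-2 is an immortalized human erythroid progenitor line, and all 8 libraries came from it. The control cells are labelled wild-type and received an empty expression vector. The rescued cells are labelled GATA2+/- and received a vector for HA-tagged GATA2 with T354M, so genotype and vector differ together between the groups and cannot be told apart within these 8 libraries. The nature of the edited allele, and whether the GATA2-low line is 1 clone, were not stated in the labels. Both kinds of cells grew in medium with erythropoietin, stem cell factor, doxycycline and dexamethasone and were sorted for GFP after infection. Occupancy was read by CUT&Tag, in which an antibody brings a transposase to the chromatin it recognises. The anti-GATA2 antibody was rabbit and made in-house, and it does not separate the tagged mutant from GATA2 made by the remaining allele. Of 12 erythroid marker genes, 9 had a peak in all 4 wild-type and 8 in all 4 T354M libraries. HBB and HBA1, which encode globin chains, had none in either group, and EPOR, the erythropoietin receptor gene, had a peak in 4 and 0 libraries. The EPOR peaks stood in the lower part of the wild-type lists. Peaks show occupancy and not expression.

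Read totals are unknown, so depth was judged from the background of each list, recovered from the fold enrichment and p of its peaks. The lowest background was 0.222 to 0.302 fragments in the wild-type lists and 0.294 to 0.305 in the T354M lists. The caller had scaled the T354M libraries by factors of 0.5 to 0.706 and the wild-type libraries not at all, and before that scaling the T354M background was 0.42 to 0.587. The wild-type lists held 4 to 11 mitochondrial peaks each and the T354M lists 0. The lowest fold in the lists was 2.16 to 2.44 and 2.03 to 2.15. With fragments rescaled to a common background, the ratio of peak numbers given next was 1.65 (adjusted exact permutation p = 0.0653). That rescaling started from the called peaks and could only remove some of them. It could not restore peaks missed when the caller scaled the T354M libraries, so it does not test the effect of depth or scaling. The part of the scaling and of the mitochondrial fragments in the results was not tested.

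Fewer anti-GATA2 peaks were called in the T354M cells than in wild-type cells, in every library. The wild-type lists held 6641, 6555, 9121 and 8183 peaks (7625 ± 1247, SD, n = 4) and the T354M lists 4643, 2779, 5587 and 6311 (4830 ± 1528). The highest T354M library lay below the lowest wild-type library, so the groups did not overlap, and T354M replicate 2 was the lowest of the 8. The ratio of geometric means was 1.63 (exact two-sided permutation p = 0.0286, the smallest that 70 splits allow, and 0.0327 after Benjamini-Hochberg adjustment over 8 measures). Without T354M replicate 2 the ratio was 1.38 and the adjusted exact permutation p was 0.0653. Separate cultures are not named in the labels, so these p-values measure only the spread between libraries, which may be technical.

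**Figure D1:**
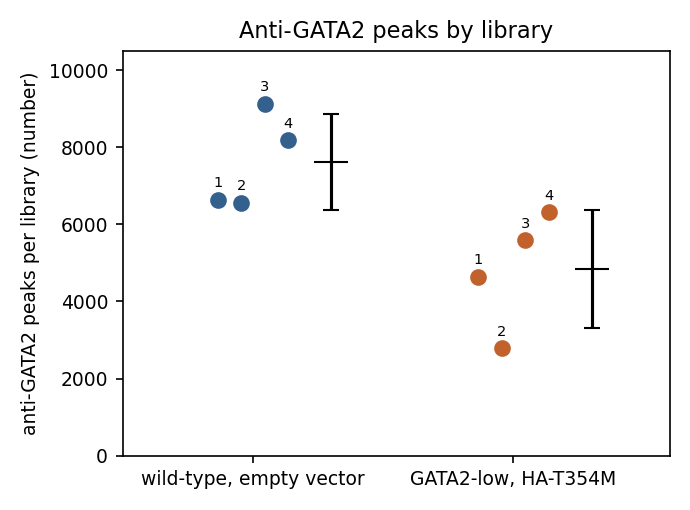
Peaks per library (vertical axis, number) in the 4 wild-type empty-vector and the 4 GATA2-low HA-T354M libraries, numbered by replicate; the bar at the side of each group is its mean with SD. The T354M points, from 2779 to 6311, all lie below the wild-type points, from 6555 to 9121.

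In the deposited lists, the T354M sites were largely a subset of the wild-type sites. A peak was found in any wild-type library at 11042 sites and in any T354M library at 7195. Of the 2564 sites in all 4 T354M libraries, 90.8% were also in all 4 wild-type libraries and 2.07% in none. Of the 4806 sites in all 4 wild-type libraries, 48.5% were in all 4 T354M libraries and 9.97% in none. Single T354M libraries held 73.3%, 50.5%, 80.3% and 83.9% of the constant wild-type sites. Single wild-type libraries held 93.4%, 92.8%, 96.4% and 96.6% of the constant T354M sites. These shares refer to different sets of sites and move with list length. The T354M lists held 2779 to 6311 peaks and the wild-type lists 6555 to 9121. Counts in lists of equal length are given below.

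Shared sites, with a peak in all 8 libraries, numbered 2329 (19.6% of the 11889). Wild-type-only sites, with a peak in every wild-type and no T354M library, numbered 479 (4.03%). T354M-only sites, the other way round, numbered 53 (0.446%). Each of these 532 sites had an unadjusted p of 0.0286 in Fisher's exact test, and 0 were called after adjustment over all 11889 (smallest adjusted exact p = 0.639). In lists cut to the same 2779 peaks, wild-type-only sites numbered 101 and T354M-only sites 146, so the excess of wild-type-only sites was not seen once the lists had equal length. Without wild-type replicate 2 the wild-type-only sites numbered 769, without T354M replicate 4 they numbered 732, and without T354M replicate 2 the T354M-only sites numbered 141.

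**Figure D2:**
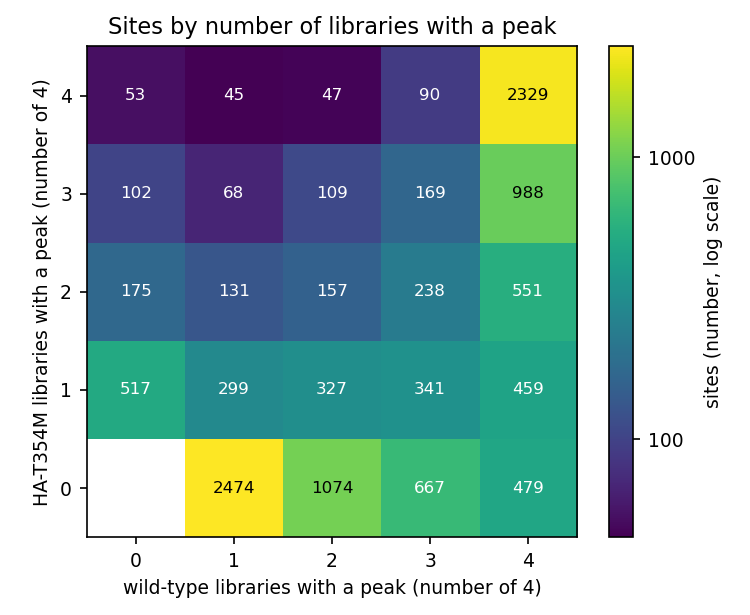
Number of sites (printed, and as colour on a log scale) by how many wild-type libraries (horizontal axis) and how many HA-T354M libraries (vertical axis) had a peak there. The corner with 4 of both holds 2329 sites, the wild-type-only corner 479 and the T354M-only corner 53.

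The rank of a site in the wild-type lists went with its presence in the T354M lists. The 4806 constant wild-type sites were split in 4 bins of equal size by their mean percentile of −log10 q within the wild-type lists, which uses no T354M value. In the highest bin the T354M libraries held 99.0%, 95.5%, 99.3% and 99.5% of the sites. In the lowest bin they held 43.8%, 11.7%, 53.8% and 57.0%. The means were 41.5% ± 20.7 (SD, n = 4), 63.4% ± 22.8, 84.7% ± 14.7 and 98.3% ± 1.88 from the lowest to the highest bin. Each of the 4 libraries held a larger share in each higher bin, and T354M replicate 2 was the lowest in every bin.

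Sites near gene starts were held less often than others over all bins, and mostly ranked low. Of the constant wild-type sites within 1 kb of a protein-coding gene start, the T354M libraries held 63.5%, 20.8%, 69.9% and 67.3%, and of those farther away 74.8%, 56.3%, 81.9% and 86.9%. The means were 55.4% ± 23.2 for 784 sites and 75% ± 13.4 for 3693. Of the 784 near sites, 443 were in the lowest bin. Within the lowest bin the means were 39.1% ± 23 near starts and 42.1% ± 19.5 away from them, and in the second 66.5% ± 32.0 and 62.2% ± 21.3. T354M replicate 2 held 4.97% of the near sites of the lowest bin and 15.2% of the others, and replicate 4 held 49.7% and 60%. T354M replicates 1 and 3 held more of the near ones (47.2% against 41.2%, and 54.6% against 51.9%).

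**Figure D3:**
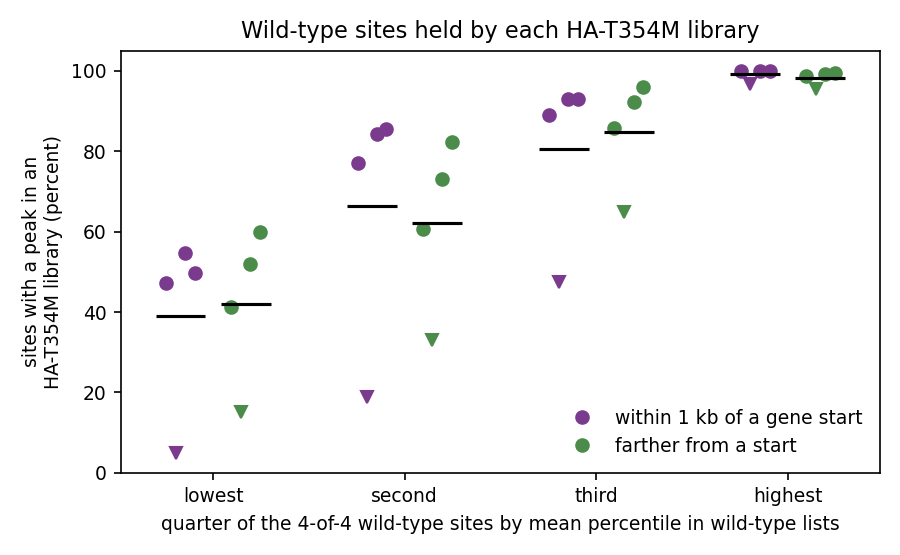
Percent of the constant wild-type sites that each HA-T354M library held (vertical axis) by bin of their rank in the wild-type lists (horizontal axis), for sites within 1 kb of a gene start and farther away; triangles are T354M replicate 2, circles the other replicates, lines the means. The means go from 39.1% and 42.1% in the lowest bin to 99.2% and 98.2% in the highest.

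The sites could also be ordered by libraries outside the comparison. GATA2-low cells with the empty vector give the occupancy that the line has without a rescue. Of the constant wild-type sites that also had a peak in all 4 of these libraries (1298 sites), the T354M libraries held 97.6% ± 3.15. Where 3, 2 or 1 of them had a peak, the share was 88.0% ± 14, 76.4% ± 19.9 and 65.4% ± 22.3, and where none had one (1524 sites) 47.3% ± 19.3. The libraries held 48.4%, 19.8%, 58.4% and 62.5% of these 1524. T354M libraries thus had peaks at sites without one in the unrescued cells, whose lists were shorter (1823 to 3648 peaks), and fewest in replicate 2. In GATA2-low cells rescued with unmutated HA-GATA2, 3776 of the constant wild-type sites had a peak in all 4 anti-GATA2 libraries, and the T354M libraries held 82.5% ± 13.7 of these. They held 22.8% ± 14.3 of the 202 sites at which HA-GATA2 had no peak either.

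Promoters show the 3 kinds of site at single genes, and their sequences are given because GATA factors bind DNA with these letters. Each is the 250 bases before the start, from the RefSeq promoter table (GRCh38.p14), 5′ to 3′ on the gene's strand, with GATAA on either strand in capitals, so that a match on the opposite strand reads TTATC.
CPOX: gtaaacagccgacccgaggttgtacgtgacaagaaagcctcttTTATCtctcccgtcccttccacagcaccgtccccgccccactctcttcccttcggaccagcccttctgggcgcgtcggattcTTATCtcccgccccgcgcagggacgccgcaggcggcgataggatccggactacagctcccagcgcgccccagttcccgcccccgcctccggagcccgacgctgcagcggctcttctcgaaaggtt
KLF1: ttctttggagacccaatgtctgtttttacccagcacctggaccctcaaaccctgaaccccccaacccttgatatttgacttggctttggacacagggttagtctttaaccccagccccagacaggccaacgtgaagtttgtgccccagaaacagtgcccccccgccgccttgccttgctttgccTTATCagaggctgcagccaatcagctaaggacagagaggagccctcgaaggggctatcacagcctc
LYL1: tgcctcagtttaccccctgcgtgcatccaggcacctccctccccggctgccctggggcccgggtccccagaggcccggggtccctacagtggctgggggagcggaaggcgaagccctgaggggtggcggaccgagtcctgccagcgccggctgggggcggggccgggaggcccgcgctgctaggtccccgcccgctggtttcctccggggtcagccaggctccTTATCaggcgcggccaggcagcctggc
FTL: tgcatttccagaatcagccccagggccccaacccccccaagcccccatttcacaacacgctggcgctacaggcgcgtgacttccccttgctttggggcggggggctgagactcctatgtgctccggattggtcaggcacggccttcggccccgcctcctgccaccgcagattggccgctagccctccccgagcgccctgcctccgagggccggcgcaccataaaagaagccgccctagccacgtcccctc
H3C3: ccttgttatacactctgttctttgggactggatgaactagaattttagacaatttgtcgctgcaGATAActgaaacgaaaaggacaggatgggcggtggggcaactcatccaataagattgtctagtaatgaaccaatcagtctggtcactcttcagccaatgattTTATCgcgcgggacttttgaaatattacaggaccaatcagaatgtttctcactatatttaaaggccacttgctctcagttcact
ERAP2: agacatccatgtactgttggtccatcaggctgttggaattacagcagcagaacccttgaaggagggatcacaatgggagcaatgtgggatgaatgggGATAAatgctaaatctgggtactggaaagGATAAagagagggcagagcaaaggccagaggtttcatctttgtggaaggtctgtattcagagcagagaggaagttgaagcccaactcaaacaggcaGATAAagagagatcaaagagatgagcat
CPOX (chr3:98593612-98593861, minus strand) encodes coproporphyrinogen oxidase of heme synthesis, KLF1 (chr19:12887202-12887451, minus strand) an erythroid transcription factor and LYL1 (chr19:13102859-13103108, minus strand) a relative of TAL1. Their promoters lay in shared sites. FTL (chr19:48965059-48965308, plus strand) encodes the ferritin light chain and H3C3 (chr6:26045134-26045383, plus strand) a replication-dependent histone. Their promoters lay in wild-type-only sites. A neighbouring site in the H3C3 window, at the H2BC3 start (chr6:26043368-26044611), had a peak in 4 wild-type and 3 T354M libraries. As a gene, H3C3 thus stood at 4 against 3. ERAP2 (chr5:96875734-96875983, plus strand) encodes an aminopeptidase that trims peptides for antigen presentation, and it was the only gene with a promoter in a T354M-only site.

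The letters GATAA occurred 2 times in the printed CPOX bases, 1 time in those of KLF1 and of LYL1, 2 times in H3C3, 3 times in ERAP2 and 0 times in FTL, both strands counted. Of the 250 bases before the start, 16.8% of all 22132 windows held a match, 25.5% of the 204 in shared sites and 21.4% of the 159 in wild-type-only sites. A match is a description of the letters and not a site. At the CPOX promoter the authors' fold enrichment was 11.7, 11.4, 16.9 and 12.9 in the wild-type lists and 7.15, 5.5, 6.73 and 8.97 in the T354M lists. At LYL1 it was 18.7, 20, 23.2 and 27.5 against 10.1, 7.4, 10.7 and 16.0, and at KLF1 8.29, 12.9, 11.7 and 19.3 against 11, 5.93, 8.76 and 11.3. The CPOX and LYL1 values did not overlap between the groups, but a fold is relative to its own list, and the T354M libraries were scaled by the caller. The wild-type peaks were weak at FTL (fold 4.32, 5.22, 4.35 and 4.99, mean percentile 7.11) and stood near the middle of the lists at H3C3 (9.06, 4.27, 9.42 and 8.4, percentile 44.9). At ERAP2 the T354M folds were 8.93, 7.75, 8.28 and 9.51, and the 4 HA-GATA2 libraries had a peak there and the GATA2-low empty-vector libraries none. Histone genes are near-identical copies of each other, so how reads were shared among them is uncertain.

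Sites with at least 3 more wild-type than T354M libraries made up 13.5% of the 11889, and the reverse 1.68%. Wild-type-only sites ranked in the wild-type lists at about the level of all sites with a wild-type peak, with median percentiles of 38.0 and 36.4. Other constant wild-type sites ranked higher, at 52.2 where 1 to 3 T354M libraries had a peak and 82.9 at shared sites. Within 1 kb of a gene start lay 27.4% of the wild-type-only sites (125 of 457 on chromosomes with known starts). The share was 7.17% at shared sites (154 of 2148) and 24.3% over all sites (2720 of 11183). At constant wild-type sites with a peak in 1 to 3 T354M libraries it was 27.0% (505 of 1872). All 10 wild-type-only sites with the highest mean percentile lay at least 4902 bp from a gene start. A pair of them lay inside ROBO2, an axon guidance receptor gene, at chr3:77235911-77236930 and chr3:77179571-77180390. The fold there was 43.5, 45.3, 57.8 and 47.5 at the first and 45.8, 32.3, 39.3 and 42.5 at the second. A site inside DCC, another axon guidance receptor gene (chr18:53191749-53192397), had 22.3, 31.7, 38.6 and 35.8. The ROBO2 and DCC sites were the only 3 wild-type-only sites that ranked at the 75th percentile or above and had no peak in any of the 24 GATA2-low libraries, tagged or not and with either antibody. In all, 71 of the 479 sites (14.8%) had no peak in those 24. Of the 24, the 4 T354M anti-GATA2 libraries lacked a peak by the definition of the class. The 4 empty-vector anti-HA lists held only 6, 5, 1 and 4 peaks, so an absence there says little.

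The other 7 of these 10 had a peak in at least 1 HA-GATA2 library. TRIM38 (chr6:25973789-25974542) encodes a ubiquitin ligase that dampens innate immune signalling, and its site had folds of 31.6, 26.4, 39.8 and 34.8. The sites inside TRIM38 and MAP3K3, a MAP kinase kinase kinase gene (chr17:63675741-63676394), had a peak in 4 of 4 HA-GATA2 anti-GATA2 libraries, as did those 233276 bp from CNTNAP5 and 165405 bp from DCBLD2. Sites inside STATH and 26500 bp from ITLN1 had one in 3 of 4, and the top site of all, 1183878 bp from the nearest gene LOC124904970 (chr20:29629132-29629900), in 1 of 4.

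The T354M-only sites were few and lay away from promoters, as did most other sites in all 4 T354M libraries. Of the 45 on chromosomes with known starts, 1 (2.22%) lay within 1 kb of one, and their median percentile in the T354M lists was 45.5. The share within 1 kb was 4.14% for sites in 4 of 4 T354M and 1 to 3 wild-type libraries (7 of 169). It was 7.17% for shared sites and 24.3% for all sites. The highest lay inside PTTG1IP2 (chr7:90485628-90486339), where the T354M folds were 28.9, 22.4, 34.0 and 37.5, and where 3 of 4 GATA2-low empty-vector libraries also had a peak. The next lay 59504 bp from MYB, a transcription factor gene of progenitor cells (chr6:135121429-135122121), with folds of 26.2, 15.7, 28.3 and 29.9. It had a peak in 0 of 4 empty-vector and 4 of 4 HA-GATA2 libraries and, with the anti-HA antibody, in 2 of 4 T354M libraries. Another lay inside MECOM, which encodes the stem cell factor EVI1 (chr3:169510315-169510933; folds 15.2, 17, 26.7 and 20.9). The remaining 7 of the top 10 lay inside DOP1B, DPY19L4, VPS13B, ZSCAN32, DNAAF10 and PLCL1 and 25009 bp from NIFK. All 10 had a peak in 4 of 4 HA-GATA2 anti-GATA2 libraries, and at ZSCAN32 all 4 empty-vector libraries had one too. A peak in 4 of 4 HA-GATA2 anti-GATA2 libraries was also found at 48.0% of all 11889 sites and 98.2% of the shared sites.

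The presence of these classes in libraries outside the comparison moved with the length of the lists, which held 7064 to 12171 peaks for HA-GATA2 and 1823 to 3648 for the GATA2-low empty vector with anti-GATA2, and 1912 to 6065 for HA-GATA2 and 426 to 744 for HA-T354M with anti-HA. HA-GATA2 anti-GATA2 libraries had a peak at 30.7% to 67.8% of the wild-type-only sites (mean 54.2%) and at 96.7% of the T354M-only sites on average. GATA2-low empty-vector libraries had one at 7.46% and 5.19%. Both differences between HA-GATA2 and the empty vector had an exact two-sided permutation p of 0.0286 (n = 4 and 4, also 0.0286 after adjustment over 4 tests). With anti-HA, which sees only the tagged proteins, HA-GATA2 libraries had a peak at 18.7% of the wild-type-only and 64.2% of the T354M-only sites. HA-T354M libraries had one at 0.522% and 7.55% (exact permutation p = 0.0286 for both, adjusted 0.0286). The anti-GATA2 lists of HA-T354M cells chose both classes, so the anti-HA tests were not independent of that choice. Wild-type-only sites were chosen to lack a peak in those lists. With the lists of each test cut to the length of the shortest, the differences shrank, and those at wild-type-only sites changed sign. At 1823 peaks a list, HA-GATA2 held 0.626% and the empty vector 2.3% of the wild-type-only sites, and 26.4% and 5.19% of the T354M-only sites (exact permutation p = 0.0286 for both, adjusted 0.0571). At 426 peaks with anti-HA, the means of HA-GATA2 and HA-T354M were 0.0% and 0.104% of the wild-type-only sites (adjusted exact permutation p = 0.571) and 5.66% and 5.19% of the T354M-only sites (adjusted exact permutation p = 1.0). With the deposited lists, presence in every HA-GATA2 and no empty-vector anti-GATA2 list was found at 47 of the 53 T354M-only, 89 of the 479 wild-type-only and 247 of the 2329 shared sites, and at 20.8% of all 11889. List lengths bear in the same way on each presence in these libraries given for single sites and genes. At shared sites the means over the deposited lists were 70.8% for the empty vector, 99.4% for HA-GATA2, 80.4% for HA-GATA2 with anti-HA and 21.9% for HA-T354M with anti-HA.

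**Figure D4:**
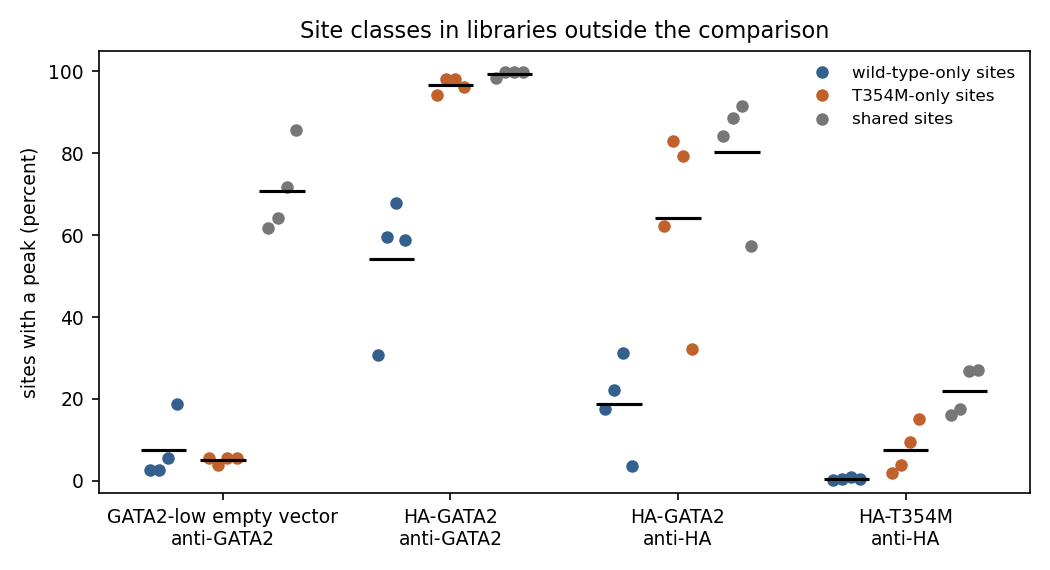
Percent of sites of each class with a peak (vertical axis) in each library of 4 groups outside the comparison (horizontal axis), over the deposited lists, which differ in length; points are libraries, lines group means. The T354M-only sites are near 97% in HA-GATA2 and near 5% in empty-vector libraries, and the wild-type-only sites lie between 30.7% and 67.8% in HA-GATA2.

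Among shared sites the order of strength differed too. Each library's 2329 shared sites were ranked by −log10 q and given as a percentile of this same set. At 356 sites (15.3%) every wild-type percentile was above every T354M percentile, and at 359 sites (15.4%) the reverse held. The exact permutation test called 0 sites after adjustment (smallest adjusted p = 0.0931), and 715 sites had an unadjusted p under 0.05. Placed higher in wild-type cells were sites 6215 bp from POU3F1 and inside CNTN5, with mean percentiles of 59.3 against 6.84 and 65.7 against 13.8. The same held 1070 bp from SLC14A1, the urea transporter that carries the Kidd blood group (76.3 against 26), 61469 bp from GPR12 (66.8 against 16.6) and inside GATA2. Placed higher in T354M cells were a site 81610 bp from RREB1 (8.1 against 83.5) and sites inside KIF13B (10.7 against 83.5), EXT1 (8.02 against 72.9) and SUSD4 (21 against 84.9). A site 245566 bp from MYC, the proliferation factor gene, stood at 5.09 against 75.2. In the GATA2-low empty-vector libraries the sites near RREB1 and MYC and the one inside EXT1 had a peak in 0 of 4, while HA-GATA2 had one in 4 of 4 at each. Shared sites chosen for the highest mean percentile over all 8 libraries (99.6 to 100 in each group) lay inside ZFPM2, which encodes the GATA cofactor FOG2, inside ZNF521, which encodes a zinc finger protein of progenitor cells, and near CIBAR1 and UTRN.

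GATA2 itself had 7 sites in its window, and they did not move together. At chr3:128482702-128484003, inside the gene, the folds were 21, 25.7, 26.6 and 23.7 in wild-type and 7.07, 6.17, 8.28 and 10.7 in T354M libraries. Its percentile among shared sites was 52.4 against 3.86, with ranges of 38.8 to 68.5 and 1.85 to 8.78. HA-GATA2 libraries had 14.2, 11.6, 11.5 and 11.3 there, and 2 of 4 empty-vector libraries had a peak. At chr3:128495069-128496370, before the most upstream start, all 24 libraries of the 6 groups shown in the plot of the GATA2 peaks had a peak, and the percentile among shared sites was 85.1 against 78.3. A site just before that start (chr3:128493054-128493673) had a peak in 3 wild-type libraries and 0 T354M libraries.

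A further site inside GATA2 stood the other way. At chr3:128485735-128487032 the T354M libraries had folds of 34.0, 30.4, 43.8 and 40.3, with a mean percentile of 98.3 in their lists, and 1 wild-type library had a fold of 5.52. The site had a peak in all 4 HA-GATA2 anti-GATA2 libraries (19.3, 20.6, 23 and 11.2), in all 4 HA-T354M anti-HA libraries and in 3 HA-GATA2 anti-HA libraries, and in none with the empty vector in GATA2-low cells. It was thus present where a vector for GATA2 had been given and nearly absent elsewhere. Whether reads of the GATA2 insert of the vector align there was not tested.

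**Figure D5:**
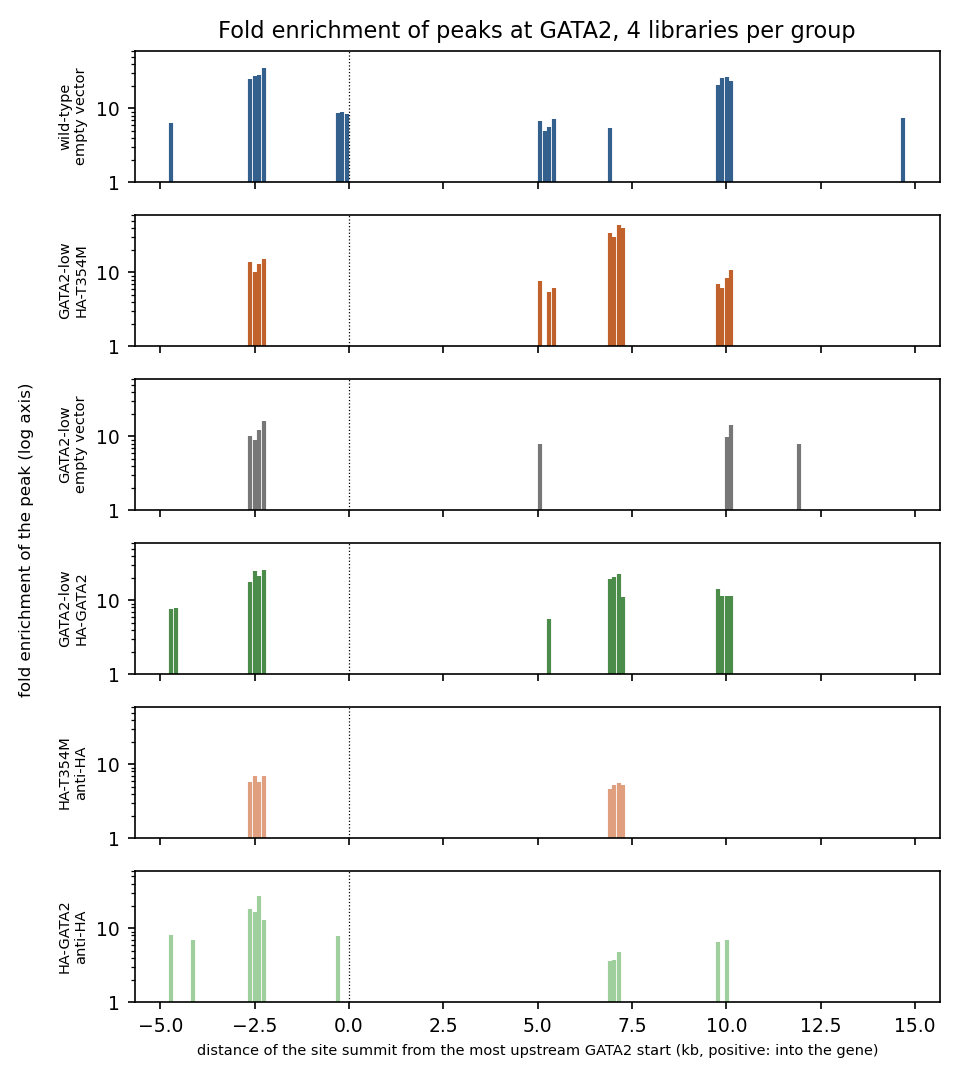
Authors' fold enrichment (vertical axes, log scale) of the peaks at GATA2 by distance of the site summit from the most upstream start (horizontal axis, kb), 1 panel per group and 1 line per library, set side by side for display. The site near 7 kb is high in HA-T354M (30.4 to 43.8) and present in 1 wild-type library, and the one near 10 kb is higher in wild-type lists (21 to 26.6) than in HA-T354M lists (6.17 to 10.7).

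The partners of GATA2 and its best known targets mostly had a peak in both groups. Of 16 genes on this list 13 had a peak in any of the 8 libraries, and 10 of the 13 had one in 4 of 4 libraries of both groups, as did 22.9% of all 7196 genes with a peak. None differed by 3 or more libraries, which 14.4% of all genes did towards wild-type and 0.889% towards T354M. TAL1, the main DNA-binding partner, had 4 sites. The one at its start (chr1:47231430-47232945) had folds of 30.2, 22.6, 40.2 and 31.5 against 18.3, 14.4, 19.6 and 20.5. Its percentile among shared sites was alike, 79.5 (71.2 to 84.7) against 78.6 (73.4 to 81.5). The one at chr1:47238939-47239938 had a peak in 0 of 4 empty-vector libraries. Its percentile among shared sites was 12.2 (9.15 to 16.6) in wild-type and 50.1 (31.3 to 60.2) in T354M libraries. These ranges did not overlap, as at 15.4% of shared sites in this direction. Within the full lists, which differ in length, its mean percentiles were 58.0 and 71.9. Another (chr1:47224531-47225208) had a peak in 4 wild-type and 1 T354M library. LDB1, another of the partners, had a peak in 4 and 2 libraries, and LMO2 in 4 of 4 of both at chr11:33884885-33885871 and chr11:33892765-33895082.

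Single sites within these windows often had a peak in more wild-type than T354M libraries, as did 63.9% of all 11889 sites, while 11.2% had one in more T354M libraries. ZFPM1, which encodes FOG1, had 15 sites, 8 of them in all 8 libraries, 5 in more wild-type and 1 in more T354M libraries. Its relative ZFPM2 had 9 sites, 4 of them in more T354M and 2 in more wild-type libraries. GFI1B, a repressor gene of erythroid and platelet precursors, had 6 sites, of which 2 were in all 8 libraries and 4 in more wild-type libraries. RUNX1 and MYB, stem and progenitor cell factors, had 5 each, with 3 in more wild-type and 0 in more T354M libraries. At the MYB start (chr6:135181018-135181438) 4 wild-type and 1 T354M library had a peak. GATA1 had 5 sites, 2 of them in all 8 libraries, and at KLF1 and ALAS2, the gene for the erythroid enzyme that starts heme synthesis, 1 site each was in all 8. CBFA2T3 had a peak in 1 library of each group, and HBG1 and HBG2, the fetal globin genes, had none.

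Erythroid genes mostly had a peak in both groups. Of 25 globin and heme genes 16 had a peak in any library, 9 in all 8, and the heme enzyme genes CPOX, PPOX, FECH, UROS and ALAS2 were among the 9. HBE1, the embryonic globin gene, was the only one with a difference of 3 or more (4 against 1). Over all genes with a peak, 22.9% had one in all 8 and 14.4% differed by 3 or more towards wild-type. Of 35 red cell membrane, iron and blood group genes 34 had a peak and 21 had one in all 8, among them EPB42, SLC4A1 (band 3), ANK1, RHAG, CA1 and the transferrin receptor gene TFRC. SLC11A2, an iron transporter gene, FTL and EPOR stood at 4 against 0 (4.06% of all genes with a peak did). FTL and EPOR rested on weak wild-type peaks. At the EPOR site in all 4 wild-type lists the folds were 5.3, 6.79, 5.11 and 6.47, with a mean percentile of 7.88. The SLC11A2 peaks had a mean percentile of 40.1. XK stood at 3 against 0 and the adducin genes ADD1 and ADD2 at 4 against 1. The mean number of listed genes with a peak was 31.5 ± 1.29 per wild-type and 24.2 ± 2.5 per T354M library. The median difference in libraries per gene was 0 on both lists and 1 over all genes. The constant wild-type sites at globin and heme genes (23) were held by the T354M libraries to 69.6% ± 13.7, those at red cell genes (52) to 81.7% ± 9.74, those at the partners and core targets (39) to 84.6% ± 14, and all 4806 to 72.0% ± 15.

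Of 31 further haematopoietic transcription factor genes 23 had a peak and 10 had one in all 8, among them KLF1, NFE2, CEBPE, FOXO3, NFIA and TCF3. Over all genes with a peak, 22.9% had one in all 8. ZBTB7A, a repressor of fetal globin, SOX6 and BACH1, a heme-regulated repressor gene, stood at 4 against 1, and IKZF2 at 3 against 0. Of 19 cytokine genes with a peak 7 had one in all 8. CSF1R, the receptor gene of a macrophage growth factor, and IL6ST, the shared receptor chain of the interleukin 6 family, stood at 4 against 1. A difference of 3 or more towards wild-type was thus found at 4 of 23 and 2 of 19 genes, near the 14.4% over all genes. KIT, the stem cell factor receptor gene, FLT3 and TGFBR1 had a peak in 3 wild-type and 4 T354M libraries.

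Mast cell, basophil and eosinophil genes stood on both sides. Of 14 such genes with a peak, 3 differed by 3 or more libraries towards T354M and 2 towards wild-type. Over all genes with a peak the shares were 0.889% towards T354M and 14.4% towards wild-type. CPA3, the mast cell carboxypeptidase gene, had a peak in 0 wild-type and 4 T354M libraries (0.222% of all genes did), at chr3:148877946-148878558 with folds of 16.3, 12, 17.8 and 19.7. ALOX5, the 5-lipoxygenase gene, stood at 1 against 4 and CCR3, the eotaxin receptor gene, at 0 against 3. With anti-GATA2, all 3 were marked in the 4 HA-GATA2 libraries and in 0 of the 4 empty-vector libraries, as were 20.8% of all 11889 sites. The tryptase gene TPSB2 and HPGDS, a prostaglandin D synthase gene, stood at 3 against 0. HDC, the histamine-forming enzyme gene, IL1RL1 and MITF had a peak in all 8. The number of these genes with a peak was 8.5 ± 1.29 per wild-type and 8.75 ± 2.5 per T354M library, while over all genes it was 5080 ± 670 and 3210 ± 967.

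Of all 7196 genes with a peak, 4625 had more wild-type and 525 more T354M libraries, and most lists of other cell types and of broadly used genes leaned the same way. A difference of 3 or more was found at 14.4% of all genes towards wild-type and at 0.889% towards T354M. Of 9 megakaryocyte and platelet genes with a peak 8 had more wild-type and 0 more T354M libraries, with ITGA2B and GP1BB, platelet receptor genes, at 3 against 0. The mean number was 7.25 ± 0.5 against 3.0 ± 2.45 genes per library. Of 12 housekeeping genes with a peak 10 had more wild-type libraries, with RPL13A, a ribosomal protein gene, at 4 against 0, TBP at 3 against 0 and GPI at 4 against 1. Of 25 replication-dependent histone genes with a peak 15 had more wild-type and 0 more T354M libraries, and 10 had a peak in all 8. H1-2 stood at 3 against 0 and H2AC6, H2AC11 and H2BC11 at 4 against 1. The windows of neighbouring histone genes overlap, so 1 site can count for several genes, and these counts are not of separate sites. H1-1, H2AC4, H3C1, H3C2, H4C1 and H4C2 had the same mean percentiles (63.5 in wild-type and 21.3 in T354M lists). H2AC11 and H2BC11 did too (63.1 and 19.7). Neutrophil and monocyte genes (4 with a peak), lymphocyte genes (5) and genes of unrelated tissues (5) were few. CD4 stood at 4 against 0 and RAG1 at 0 against 3. Of 8 innate immune genes with a peak IRF1, an interferon response factor gene, stood at 4 against 0 and MYD88, an adaptor gene, at 1 against 4. Mean percentiles in the wild-type lists were low for IRF1 (13.2), CD4 (15.5) and RPL13A (21.3). Those in the T354M lists were 20.9 for RAG1 and 58.0 for MYD88. Of 13 autophagy genes with a peak 8 had more wild-type and 1 more T354M libraries, and none differed by 3.

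Over all genes 292 (4.06%) had a peak in every wild-type and no T354M library, 16 (0.222%) the reverse and 1645 had one in all 8. Fisher's exact test called 0 of 7196 after adjustment (smallest adjusted exact p = 0.668), and 308 had an unadjusted p of 0.0286. With lists of equal length the counts were 65 and 65. The first was 454 without wild-type replicate 2 and 447 without T354M replicate 4, and the second 45 without T354M replicate 2. Besides CPA3 and ERAP2, the 16 included DLX3, TOMM5, DAAM1, NUP50, GPR35, LAT2, RFC2, C13orf42, PLEKHG6 and SLC2A14, and the genes of 4 sites named above. At all 16 the 4 HA-GATA2 anti-GATA2 libraries had a peak, and 14 had none in the empty-vector libraries. Counted over sites and not genes, 48.0% of all 11889 had a peak in all 4 HA-GATA2 anti-GATA2 libraries. Of the same sites, 67.3% had none in the empty-vector libraries. Neighbouring genes can be counted for the same summit.

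The make-up of whole libraries differed as well. Median peak width was 375, 378, 373 and 365 bp in wild-type and 336, 330, 336 and 321 bp in T354M libraries. The share of peaks within 1 kb of a gene start was 21.7%, 22.6%, 24.9% and 20% against 16.9%, 7.14%, 16.4% and 14.5%. Neither measure overlapped between the groups (exact two-sided permutation p = 0.0286, n = 4 and 4, adjusted 0.0327 for each). With lists of equal length the widths were 587 ± 21.6 and 414 ± 58.2 bp, and the shares near starts 7.98% ± 1.36 and 6.7% ± 1.64 (exact permutation adjusted p = 0.0457 and 0.305). The share inside gene bodies was 52.4% ± 0.5 and 52.8% ± 0.441 and did not pass (exact permutation p = 0.229). Of a library's sites, 72.4% ± 4.42 in wild-type and 90.9% ± 5.23 in T354M cells were in at least 3 of 4 HA-GATA2 anti-GATA2 libraries, and 24.5% ± 3.77 against 39.2% ± 12.3 in at least 3 of 4 empty-vector libraries (adjusted exact permutation p = 0.0327 for each). With equal lists the first pair was 97.6% ± 0.46 and 98.6% ± 0.291, and the second turned round to 59.8% ± 0.475 and 56.2% ± 0.278 (adjusted exact permutation p = 0.0457 for each).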

How the data were processed

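CUT&Tag libraries of HUDEP-2 cells, 4 per group in 7 groups, had a deposited peak list each, and 8 IgG libraries were not analysed here. Groups and replicate numbers came from the titles; for 1 GATA2-low empty-vector library, used only as reference, the genotype label reads wild-type and the title was followed. Reads were handled on hg38 with cutadapt 3.3 and FastQC, Bowtie2 2.2.5, MACS2 2.2.7.1 and deepTools 3.5.3, as listed per the submitters' processing notes, with settings not given in the sources used here. The deposited fold enrichment of a peak is a linear ratio to the local background, its deposited p and q are −log10 values (lowest −log10 q 6.0), and the deposited score restates the q. These values are the authors', and they were used to describe, rank or filter peaks within a list. Lists were made per library, not on pooled libraries.

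Peaks off chromosomes 1 to 22 and X were left out. Coordinates are 1-based on hg38. Genes came from RefSeq (GRCh38.p14), with starts for 15812 of 19974 genes and none on chromosome 8, whose peaks were left out of measures near starts. Groups were compared with exact two-sided permutations of the 8 libraries and with Fisher's exact test per site or gene, with Benjamini-Hochberg adjustment over all sites, genes or measures tested (Python 3.11.15, scipy 1.17.1). The code was tested on simulated data. Whole fragments and the background were solved for each peak from its fold and −log10 p and matched both within 0.03% for 100% of the peaks with −log10 p under 40. Alternatives were a −log10 q of at least 15, a fold of at least 2.5, lists of equal length, trimmed peaks, other merging, overlap and gene windows, other libraries of equal length, a replicate block and leaving out each replicate. Replicate numbers did not pair the libraries. Some results are not reported here.

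The comparison, the 14 gene lists and the rule for named genes were chosen with earlier results of these data known. The rule named the first 12 GATA partners with KLF1, ALAS2 and the globin genes, up to 4 genes per list and direction with a difference of at least 3 libraries, up to 10 sites of each kind with the highest percentile, and up to 5 shared sites per direction and at the top. The genes with printed promoters, the further GATA2 sites, list genes without such a difference and the 16 T354M-only genes were chosen after their values were seen.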

Additional observations from a re-analysis of the deposited data

Results flagged for a closer look

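In 2 of 28 groups of 4 libraries checked, 1 library stood apart from the other 3 by more than Dixon's limit; chance flags about 1 in 20 groups. Of the T354M-only sites, 3.77% had a peak in GATA2-low empty-vector anti-GATA2 replicate 2, against 5.66% in each of the other 3 libraries, a difference of 1 site. Of the shared sites, 98.4% had a peak in HA-GATA2 anti-GATA2 replicate 1, below the other 3 libraries of that group. Neither library belongs to the 8 that were compared.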

How the results depend on the processing

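With lists of equal length, wild-type-only and T354M-only sites numbered 101 and 146, wild-type-only and T354M-only genes 65 and 65, the difference in peaks near starts (T354M minus wild-type, percentage points) was -1.28, and that in sites shared with the empty-vector libraries reversed to -3.53. With a −log10 q of at least 15 the peak ratio was 1.61 (adjusted exact permutation p = 0.098), T354M-only sites and genes numbered 34 and 8, and the adjusted p of 6 measures rose to 0.0571 or 0.098: width -66.0 bp, peaks near starts -6.59 points, and sites shared with empty vector 15.4, HA-GATA2 9.94, HA-GATA2 anti-HA 18.9 and HA-T354M anti-HA 4.9 points. With peaks covering at least 50% of a site, wild-type-only, T354M-only and shared sites numbered 734, 22 and 641, and within 1 kb of a start wild-type-only and T354M-only genes numbered 149 and 1. With fragments rescaled to a common background, which could only remove called peaks, the ratio was 1.65 (adjusted exact permutation p = 0.0653). With the other libraries cut to equal length, the differences were -1.67 and -0.104 points for wild-type-only sites, which reversed, and 21.2 and 0.472 for T354M-only sites (anti-GATA2 and anti-HA). Those alternatives, and the measures under equal length or −log10 q of at least 15, were chosen after seeing the data.

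Leaving out 1 replicate moved the peak ratio between 1.38 and 1.81, wild-type-only sites between 479 and 769, T354M-only sites between 54 and 141, shared sites between 2332 and 3237, and wild-type-only and T354M-only genes between 292 and 454 and 16 and 45. The differences ranged from -44.6 to -38.8 bp in width, from -9.6 to -6.35 points near starts, from 8.84 to 18.0 for empty vector, 16.0 to 19.6 for HA-GATA2, 14.1 to 23.7 for HA-GATA2 anti-HA and 2.11 to 4.67 for HA-T354M anti-HA. For the wild-type-only sites in other libraries they ranged from 42.2 to 54.6 (anti-GATA2) and 14 to 23.2 (anti-HA), and for the T354M-only sites from 91.0 to 92.3 and 50.3 to 67.3. The adjusted exact permutation p started at 0.0327 for the ratio and these measures and rose above the threshold for each: to 0.0762 for width, starts and HA-GATA2, 0.114 for the ratio, empty vector and HA-GATA2 anti-HA, and 0.163 for HA-T354M anti-HA. Of the comparisons of site classes in other libraries, that of T354M-only sites with anti-GATA2 stayed at an exact permutation p of 0.0286, and the other 3 reached 0.0571.

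The replicate numbers did not pair the libraries (correlations of deviations from -0.0599 to 0.0364). With the replicate block, whose smallest exact p is 0.125, the peak ratio of 1.63 and the differences of -42.0 bp, -8.55, 14.7, 18.5, 20.2 and 3.77 points had an adjusted p of 0.143.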
